A study of Mus musculus with 3 samples.

Results

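To determine whether YTHDF2 carries transcripts of the Tdpoz and Tcstv families, RNA immunoprecipitation sequencing (RIP-seq) libraries were examined for 7 genes, namely Tdpoz1, Tdpoz2, Tdpoz3, Tdpoz4, Tdpoz5, Tcstv1 and Tcstv3. They were taken by symbol from a table of 49997 genes, and all 7 had a row in it. In RIP-seq, the RNA held by a protein is recovered with an antibody, sequenced and set against an input library. E14 is a line of mouse embryonic stem cells (ESCs) from another strain than the reference genome, and it was treated with doxycycline (Dox) for 24 h. In the cell system of the study, Dox switches on a transgene for the transcription factor DUX, and a fluorescent reporter marks cells in the 2-cell-like (2C-like) state. The libraries were 1 input and 2 immunoprecipitations (IP) with an anti-YTHDF2 antibody, all 3 from Dox-treated cells. No control-antibody IP was analysed here. It is not stated if the IP libraries came from separate cultures, so their spread may be technical, and the input had no replicate.

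YTHDF2 is a cytoplasmic reader of N6-methyladenosine (m6A) that recruits the CCR4-NOT deadenylase and shortens the life of the RNAs it holds. Tdpoz and Tcstv genes are tandemly repeated families that are expressed in the 2-cell mouse embryo and come on with DUX in ESCs. Tdpoz genes encode relatives of SPOP, with a TRAF domain that binds substrates and a POZ domain that in SPOP recruits a cullin ubiquitin ligase. Tcstv genes (2-cell-stage variable group) encode small proteins, and Tcstv1 and Tcstv3 are known for lengthening telomeres in mouse ESCs. Because some copies within a family are nearly identical, a short read from them can be placed at several genes, and the authors' counting left such reads out. In a bulk library, fewer 2C-like cells and less of the RNA per cell cannot be told apart.

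All Tdpoz members lay in a cluster on chromosome 3 and both Tcstv members in a cluster on chromosome 13 (coordinates on mm10, 1-based). Ordered by position, the exons of the Tdpoz members spanned chr3:93651542-93652686 (Tdpoz2, minus strand), chr3:93669333-93676283 (Tdpoz1, minus), chr3:93796398-93797510 (Tdpoz4, plus), chr3:93826020-93827117 (Tdpoz3, plus) and chr3:93960292-93961314 (Tdpoz5, minus). Tcstv1 was annotated at chr13:119893387-119894785 (minus strand) and Tcstv3 at chr13:120316862-120318261 (plus strand). The annotation used for counting gave Tdpoz3, Tdpoz4 and Tdpoz5 as coding sequence alone, of 1098, 1113 and 1023 bases with no untranslated part. The remaining members had 62 (Tdpoz2), 1204 (Tdpoz1), 360 (Tcstv1) and 368 (Tcstv3) exonic bases outside the coding sequence. Reads from untranslated ends of Tdpoz3 and Tdpoz4 transcripts, if such ends exist, were therefore not counted.

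Among Tdpoz members the results turn on Tdpoz3 and Tdpoz4, whose coding sequences were 79.2% identical over 1087 aligned bases. A stretch of 120 coding bases (coding bases 414 to 533 of each) is shown because 43 of its bases differ, which lets reads from it be told apart. Capitals mark the differing bases. The stretches lie at chr3:93826433-93826552 for Tdpoz3 and chr3:93796811-93796930 for Tdpoz4, both on the plus strand.
Tdpoz3: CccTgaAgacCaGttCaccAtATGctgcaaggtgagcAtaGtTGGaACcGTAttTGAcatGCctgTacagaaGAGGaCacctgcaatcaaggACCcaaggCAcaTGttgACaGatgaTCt
Tdpoz4: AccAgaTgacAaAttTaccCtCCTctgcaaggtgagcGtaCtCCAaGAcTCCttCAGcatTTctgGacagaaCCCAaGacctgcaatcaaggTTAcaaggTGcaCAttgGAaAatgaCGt

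Both Tcstv members were far closer to each other, with 27 differing bases among 510 aligned (94.7% identity). The stretch of 120 coding bases that differed most (coding bases 338 to 457) held 13 of them and is shown for comparison, again with the differing bases in capitals. It lies at chr13:119893638-119893757 on the minus strand for Tcstv1 and at chr13:120317904-120318023 on the plus strand for Tcstv3.
Tcstv1: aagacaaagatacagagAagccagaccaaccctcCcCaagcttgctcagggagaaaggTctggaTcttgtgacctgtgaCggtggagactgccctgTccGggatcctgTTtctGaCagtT
Tcstv3: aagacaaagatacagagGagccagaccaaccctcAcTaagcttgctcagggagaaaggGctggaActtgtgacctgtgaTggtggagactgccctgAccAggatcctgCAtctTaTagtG

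How much of each transcript a read can place was computed by sliding windows along the exons and asking whether the window occurs at a single place in the genome. With windows of 150 bases, the read length of these libraries, all windows of Tcstv1 and Tcstv3 were unique. The share was 93.5% for Tdpoz4, 91.2% for Tdpoz2, 87.8% for Tdpoz1 and 66.6% for Tdpoz3. Tdpoz5 had no unique window at 50, 100 or 150 bases, and its 1023 coding bases are identical to those of Tdpoz7. Counts of Tdpoz5 in this table therefore cannot measure its transcript. With windows of 50 bases, the unique share fell to 33.8% for Tdpoz3 and 58.8% for Tdpoz4, and was 71.5% for Tcstv1 and 67.8% for Tcstv3. Read lengths after trimming and the effect of mismatches on placement were not measured. The closest annotated copy of Tdpoz3 was Gm4982 (99.0% identity) and that of Tdpoz4 was Gm5541 (97.3%), whereas the closest copies were Gm21818 (96.7%) for Tcstv1 and AF067061 (95.9%) for Tcstv3. These shares and identities use the C57BL/6J reference, while E14 cells come from another strain. Whether strain differences moved reads between copies was not tested.

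**Figure D1:**
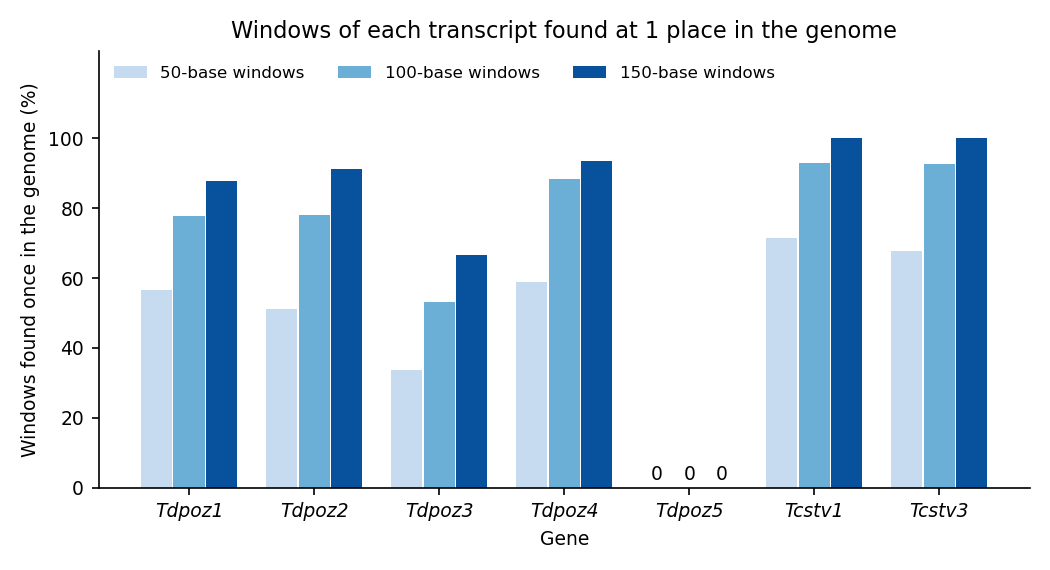
Percent of exonic windows of 50, 100 and 150 bases (bars from light to dark, y axis) that occur at 1 place in the reference genome, for each of the 7 genes (x axis). Both Tcstv genes reach 100% at 150 bases, Tdpoz3 reaches 66.6%, and Tdpoz5 is at 0 for every window length.

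Library totals were 36986994 counts for the input, 35259827 for IP replicate 1 and 35888743 for IP replicate 2, and 3 counts, taken as the floor, came to 0.0819 to 0.0848 CPM (counts scaled to a common library size). All 10 embryonic stem cell markers listed were detected. At any fold change 4 were higher and 4 lower in IP (test described below), against 28.4% and 28.9% of all tested genes. Their median log2 fold change was −0.01. Pou5f1, which encodes OCT4, had 55842 (input), 73156 and 77909 (IP) counts, and Nanog, which encodes another pluripotency factor, had 41115, 29287 and 28136. Of 7 fibroblast markers, listed since feeder cells can accompany ESCs, the collagen and matrix genes Col3a1 and Dcn were at 0 in all 3 libraries and Lum at 2, 0 and 0. Col1a2 was at 7, 4 and 6 counts and Col1a1 at 75, 57 and 62, whereas Thy1 was at 994, 498 and 543 and Fn1, which ESCs also express, at 23851, 12320 and 13150, both lower in IP by edgeR. Summed counts of those 7 went from 24929 in the input to 12879 and 13761 in IP, mostly Fn1. The 4 trophoblast markers summed to 68, 139 and 135 counts, mostly Gata3 at 56, 112 and 107, which was higher in IP (0.93, adjusted p = 0.0348 by edgeR), with Cdx2 at 2, 8 and 4 and Elf5 at 0, 9 and 4. The 4 primitive endoderm markers summed to 304, 513 and 327. Their part in the values below was not tested.

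Of the 7 genes, 4 had at least 100 counts in the input and 3 were barely detected. Each IP-to-input difference was tested by the quasi-likelihood F test of edgeR across the 19601 genes that passed a filter on low counts, with Benjamini-Hochberg adjustment over all of them. Enriched or depleted means an adjusted p below 0.05 together with more than a 2-fold change. Of the members, 5 of 7 passed the filter, and Tdpoz1 did so only through IP replicate 1, with 12 counts against 4 in the input. No member was enriched and no member was depleted, against 15.0% and 13.0% of all tested genes. At the same adjusted p and any fold change, Tcstv1 and Tcstv3 were higher in IP (28.4% of all tested genes were) and Tdpoz3 was lower (28.9% of all tested genes were). With DESeq2 in place of edgeR, 0 members were higher and 1 was lower, where 4474 of the 19601 genes were higher and 4404 lower. With the dispersion fixed at 0.1, which stands for noisier replicates, no member was called in either direction, where 1577 genes were higher and 1531 lower.

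**Figure D2:**
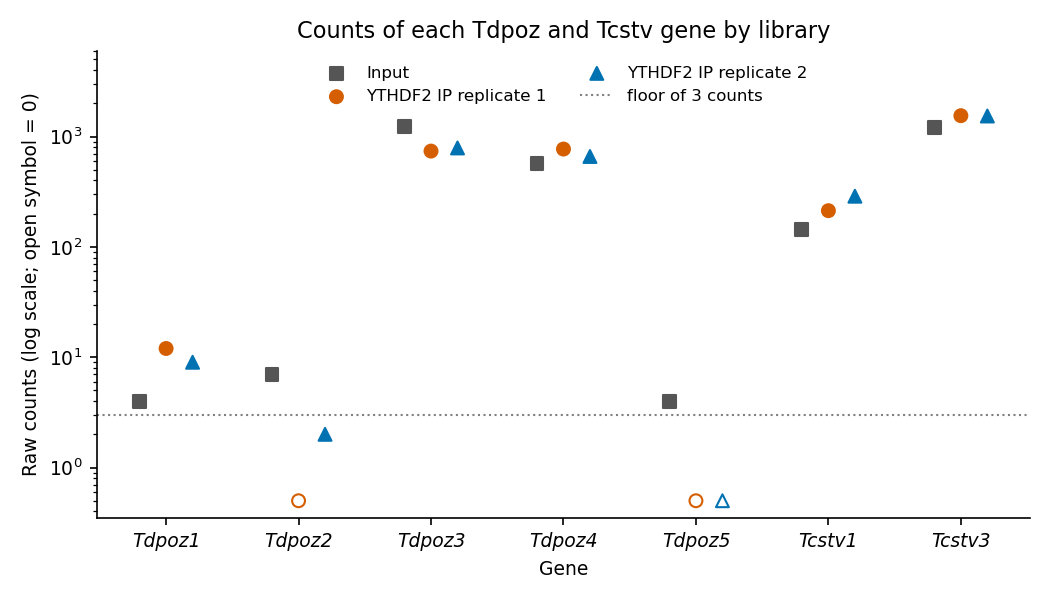
Raw counts (y axis, log scale) of the 7 genes (x axis) in the input (squares), YTHDF2 IP replicate 1 (circles) and YTHDF2 IP replicate 2 (triangles). Open symbols stand for 0 counts and the dotted line for the floor of 3 counts. Tdpoz3 is lower in both IP libraries than in the input, Tcstv1 and Tcstv3 are higher in both, and Tdpoz1, Tdpoz2 and Tdpoz5 stay at or below 12 counts.

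Tdpoz3, the most abundant member of its family in the input, was lower in IP than in the input. The input held 1226 counts of it, IP replicate 1 held 739 and IP replicate 2 held 789. Both IP libraries thus lay below the input, and close to each other. After scaling, the log2 ratios of the first and second IP replicate against the input were −0.76 and −0.69. Its fitted value was −0.72 ± 0.118 (SE) on the log2 scale, 1.65-fold below the input, with adjusted p = 1.68e-06 by edgeR. The spread between the IP libraries in genes of similar depth (SD of the log2 ratio between both replicates) was 0.159, less than the difference. That spread holds no variation of the input, which had no replicate. With the dispersion fixed at 0.1 the adjusted p-value was 0.389. Of the 19601 genes tested, 4895 had a lower log2 fold change than Tdpoz3.

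Tdpoz4, which lies 28.5 kb from Tdpoz3 in the same orientation, was not lower. The input held 572 counts of it, IP replicate 1 held 771 and IP replicate 2 held 660, so that both IP libraries were above the input. Its log2 ratios were 0.40 and 0.16, and the log2 fold change of 0.28 ± 0.144 (SE) did not pass, with adjusted p = 0.0925 by edgeR. It passed at 0.38 with total count scaling (adjusted p = 0.0293), at 0.43 with scaling to TPM (adjusted p = 0.0075) and at 0.35 with a trend on GC content removed (adjusted p = 0.0479), each of them under the fold of 2. The first pair of these scalings also moved the median over all tested genes, from 0.0063 to 0.10 and 0.15 on the log2 scale. Against Tdpoz3 in the same library, the log2 ratio of Tdpoz4 was higher by 1.16 in IP replicate 1 and by 0.84 in IP replicate 2, a difference of 1.00 ± 0.225 (SD, n = 2) that does not depend on how the libraries are scaled. It was given no test, since it rests on 2 IP libraries and a single input.

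The proportions within the family shifted accordingly. Tdpoz3 made up 67.6% of the counts of the 5 Tdpoz members in the input (95% Wilson interval 65.4 to 69.7), 48.6% in IP replicate 1 (46.1 to 51.1) and 54.0% in IP replicate 2 (51.5 to 56.6). Tdpoz4 made up 31.6% (29.5 to 33.7), 50.7% (48.2 to 53.2) and 45.2% (42.7 to 47.8). These intervals cover counting error only, and each mate of a read pair was counted on its own, so the true counting error is larger. On a scale per length (TPM, counts divided by exonic length and scaled to a common sum), Tdpoz3 stood at 62.2 in the input and 40.8 and 42.7 in IP, and Tdpoz4 at 28.6, 42.0 and 35.2. These levels are not corrected for unique windows, of which Tdpoz3 has 66.6% and Tdpoz4 93.5% at 150 bases, so that Tdpoz3 is placed too low beside Tdpoz4.

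The other Tdpoz members were too low to read. Tdpoz1 had 4 (input), 12 and 9 (IP) counts, and its log2 fold change of 1.33 ± 1.52 (SE) gave adjusted p = 0.481 by edgeR. The ratio of its pooled IP counts to the input, scaled by library, was 2.55, with an exact 95% interval of 0.862 to 10.2 that covers counting error only. Tdpoz2 had 7, 0 and 2 counts, with a ratio of 0.139 (0.0141 to 0.73), and was not tested because it failed the filter. With no filter on low counts its adjusted p was 0.487 by edgeR. Tdpoz5 had 4, 0 and 0 counts and was not tested either; with no unique window in its sequence, even the counts in the input have no clear source. Beside these low counts, Tdpoz1 and Tdpoz2 had 87.8% and 91.2% unique windows of 150 bases.

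For Tcstv3 the input held 1211 counts, IP replicate 1 held 1547 and IP replicate 2 held 1537. The IP libraries were nearly the same as each other and both above the input, with log2 ratios of 0.32 and 0.29. The log2 fold change of 0.31 ± 0.105 (SE), or 1.24-fold, gave adjusted p = 0.0111 by edgeR. DESeq2 gave 0.31 with an adjusted p-value of 0.0878, and the fixed dispersion gave 0.31 with an adjusted p-value of 0.761. With the GC trend removed the value was 0.48 (adjusted p = 0.000674 by edgeR), and on the TPM scale it was 0.46. Tcstv3 stood at 76.8 TPM in the input and 107 and 104 in IP.

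Tcstv1 was expressed at a lower level and its IP libraries differed more. The input held 145 counts of it, IP replicate 1 held 213 and IP replicate 2 held 288, again with both IP libraries above the input. The log2 ratios were 0.52 and 0.94, and the log2 fold change was 0.75 ± 0.259 (SE), or 1.68-fold, with adjusted p = 0.013 by edgeR. In genes of similar depth the SD of the log2 ratio between the IP libraries was 0.335. DESeq2 gave 0.75 with an adjusted p-value of 0.124, and the fixed dispersion an adjusted p-value of 0.411. Tcstv1 stood at 9.22 TPM in the input and at 14.7 and 19.5 in IP. Its log2 ratio exceeded that of Tcstv3 by 0.20 in IP replicate 1 and 0.64 in IP replicate 2, or 0.42 ± 0.314 (SD, n = 2), so its size depended on the library and it was given no test.

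**Figure D3:**
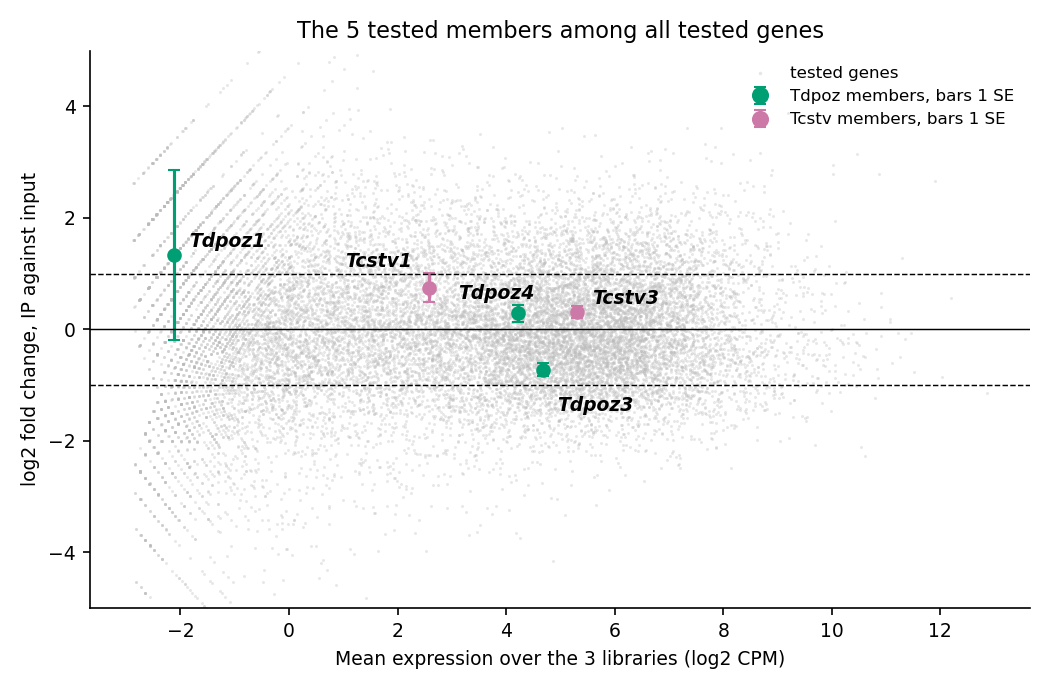
Log2 fold change of IP against input (y axis) by mean expression in log2 CPM over the 3 libraries (x axis), for the 5 tested members (coloured points, bars 1 SE) and all tested genes (grey). Dashed lines mark a fold change of 2. Tdpoz3 at −0.72, Tdpoz4 at 0.28, Tcstv3 at 0.31 and Tcstv1 at 0.75 all lie between the lines, Tdpoz1 at 1.33 has a bar that crosses 0, and 339 genes beyond a log2 fold change of 5 in size are not drawn.

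Counts were also summed over the members of each family, a value that still depends on reads placed at copies outside the members. The 5 Tdpoz members together had 1813 counts in the input, compared with 1522 and 1460 in IP, a log2 ratio of −0.28 and −0.36 (mean −0.32 ± 0.0573 SD, n = 2). Both Tcstv members together had 1356, 1760 and 1825 counts, with log2 ratios of 0.35 and 0.38 (mean 0.36 ± 0.0221 SD, n = 2). The Tdpoz sum was below the input mainly through Tdpoz3, since Tdpoz4 was above it and the other members had few counts. On the TPM scale the Tdpoz sum was −0.17, and over all annotated copies, a sum chosen after seeing the data, it was −0.16. Both Tcstv members were above the input. Over all tested genes the median was 0.0063, with quartiles at −0.72 and 0.81. The genes nearest to the Tdpoz sum in the log2 ratios of both IP libraries, among 4858 genes of 0.5 to 2 times its mean count, were Nup214, Hmbox1 and Tfpi, at distances of 0.00506 to 0.0116. Nearest to the Tcstv sum, among 4873 genes, were Lnx2, Ambra1 and Ccdc91, at 0.00712 to 0.0105. Each of these likenesses covers 2 ratios that share the input.

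Since the members are only some of the copies in each cluster, the same counts were read for every annotated gene holding at least 90% of the coding sequence of a member. This gave 25 genes for Tdpoz and 11 for Tcstv, members included, and another 3 and 5 such loci carried no annotated gene. The copies outside the members are named here after their values were seen. The 7 members held a small part of what was counted. Tcstv1 and Tcstv3 made up 2.09% of the counts of the 11 Tcstv copies in the input (95% Wilson interval 1.99 to 2.21), 1.83% in IP replicate 1 (1.75 to 1.92) and 1.87% in IP replicate 2 (1.79 to 1.96). The 5 Tdpoz members made up 30.5% of their 25 copies in the input (29.4 to 31.7), 27.7% in IP replicate 1 (26.5 to 28.9) and 26.9% in IP replicate 2 (25.7 to 28.0).

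Most Tcstv counts came from Gm21761, an annotated protein-coding copy 95.7% identical to Tcstv3 on chromosome 13. Its counts were 40528 (input), 57453 (IP replicate 1) and 58470 (IP replicate 2), or 2550, 3936 and 3926 TPM. That was 62.6% of all Tcstv counts in the input. Gm20767 (93.7% identity to Tcstv3) followed with 13413, 22304 and 22639 counts, Gm21818 (96.7% to Tcstv1) with 3816, 7326 and 7544, and AF067061 (95.9% to Tcstv3) with 3041, 4286 and 3924. All 4 were higher than the input in both IP libraries, as Tcstv1 and Tcstv3 were. Their log2 fold changes were 0.48 ± 0.0463, 0.70 ± 0.0525, 0.92 ± 0.0649 and 0.39 ± 0.0752 (SE), and none had an adjusted p above 2.45e-05 by edgeR. In the input, Gm21761 held 40528 counts against 145 for Tcstv1 and 1211 for Tcstv3. Whether reads of these abundant copies were misplaced at Tcstv1 or Tcstv3 was not tested. Of the 9 Tcstv copies outside the members, 7 were higher and 1 was lower at any fold change, against 28.4% and 28.9% of all tested genes, with a median of 0.48. DESeq2 left 5 higher and 0 lower, among them these 4, and the fixed dispersion left none in either direction, against the 4474 and 4404 and the 1577 and 1531 of all 19601 genes in those fits.

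Not all Tcstv copies went the same way. AF067063 (81.8% identity to Tcstv3) was lower, with 629 counts in the input, 437 and 540 in IP and a log2 fold change of −0.41 ± 0.154 (SE), and that call was lost under total count scaling, scaling to TPM, the fixed dispersion and DESeq2. D13Ertd608e, at 80.0% identity, was at −0.14 ± 0.135 (SE) and was not called. Past the fold of 2 were B020031M17Rik, with 40, 151 and 57 counts and a log2 fold change of 1.34 ± 0.495 (SE), and Gm8953, a pseudogene on chromosome 5 with 21, 47 and 73 counts and 1.47 ± 0.551 (SE). For B020031M17Rik the size rests on IP replicate 1, since its log2 ratio was 1.87 there and 0.46 in IP replicate 2. Neither was called by DESeq2, and B020031M17Rik was not called with the GC trend removed. Summed over all 11 Tcstv copies, the counts were 64774, 96140 and 97439, with log2 ratios of 0.54 in both IP libraries (mean 0.54 ± 0.00115 SD, n = 2), above the 0.36 of the members alone.

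The Tdpoz copies were lower in number of reads and more mixed. Tdpoz8, whose coding sequence is 94.1% identical to that of Tdpoz4, was higher in IP, with 377 counts in the input, 692 and 662 in IP and a log2 fold change of 0.80 ± 0.154 (SE, adjusted p = 2.27e-05 by edgeR), and DESeq2 called it too. Gm5541, the closest copy of Tdpoz4, had 339, 390 and 404 counts and a log2 fold change of 0.19 ± 0.18 (SE), which was not called. Gm4982, which differs from Tdpoz3 in 1.0% of its bases, had 176, 156 and 196 counts and a log2 fold change of −0.04 ± 0.268 (SE). The lower pull-down of Tdpoz3 was thus not seen in its nearest copy at this depth. Tdpoz9 had 16, 21 and 20 counts (log2 fold change 0.32 ± 0.869 SE, not called), and Tdpoz7, the twin of Tdpoz5, had 0, 0 and 1. Of the 17 tested Tdpoz copies outside the members, 1 was higher and 3 were lower, against 28.4% and 28.9% of all tested genes, with a median of −0.06, and with the GC trend removed 4 were higher and none was lower, where 5090 of the 19601 genes were higher and 5627 lower. DESeq2 left 1 higher and 0 lower (4474 and 4404 of all genes), and the fixed dispersion 0 higher and 1 lower (1577 and 1531).

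**Figure D4:**
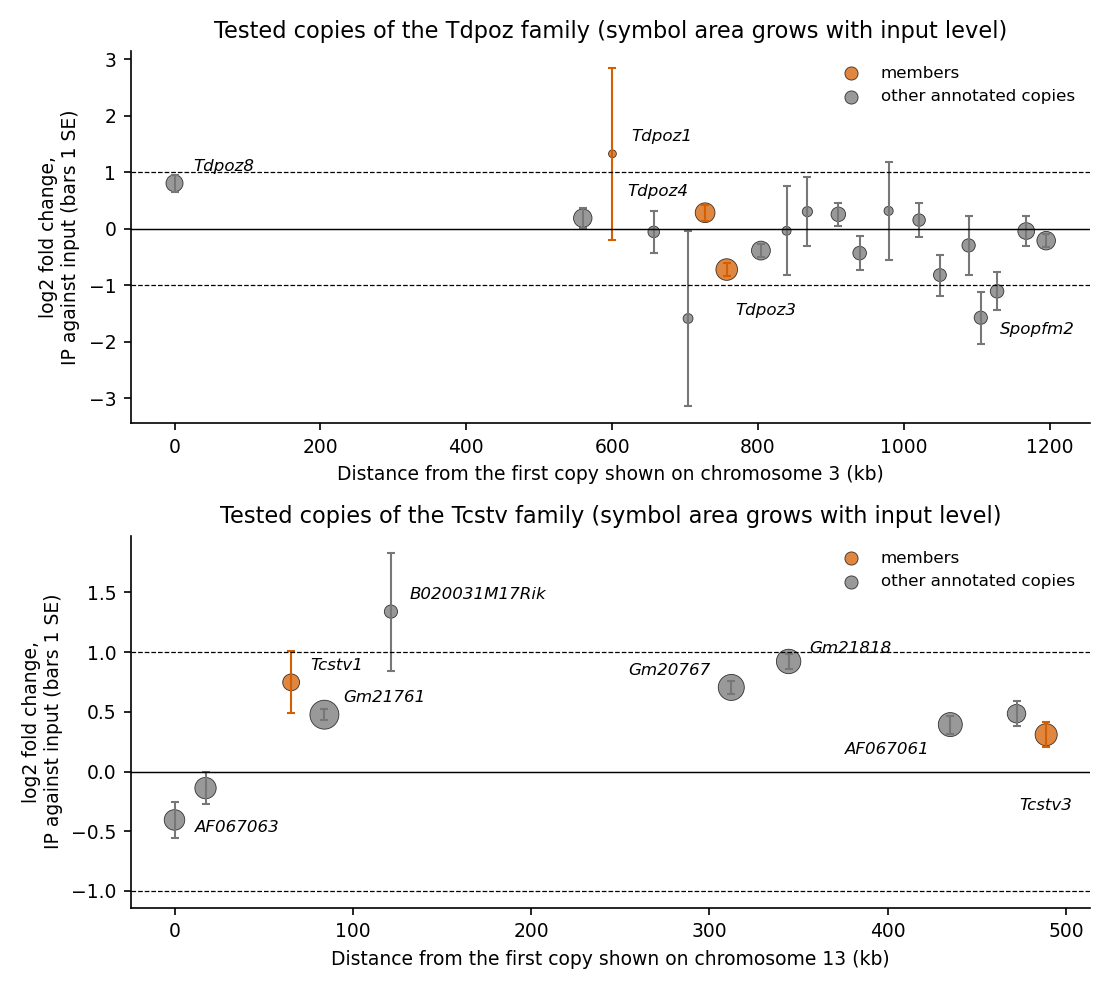
Log2 fold change of IP against input (y axis, bars 1 SE) of tested annotated copies along the chromosome 3 cluster (top, Tdpoz) and the chromosome 13 cluster (bottom, Tcstv), by distance in kb from the first copy shown (x axis). Orange marks the members, grey the other copies, and the symbol area grows with the level in the input. Tdpoz3 at −0.72 and Tdpoz4 at 0.28 are neighbours on either side of 0, while the 5 Tcstv copies highest in the input lie between 0.31 and 0.92.

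**Figure D5:**
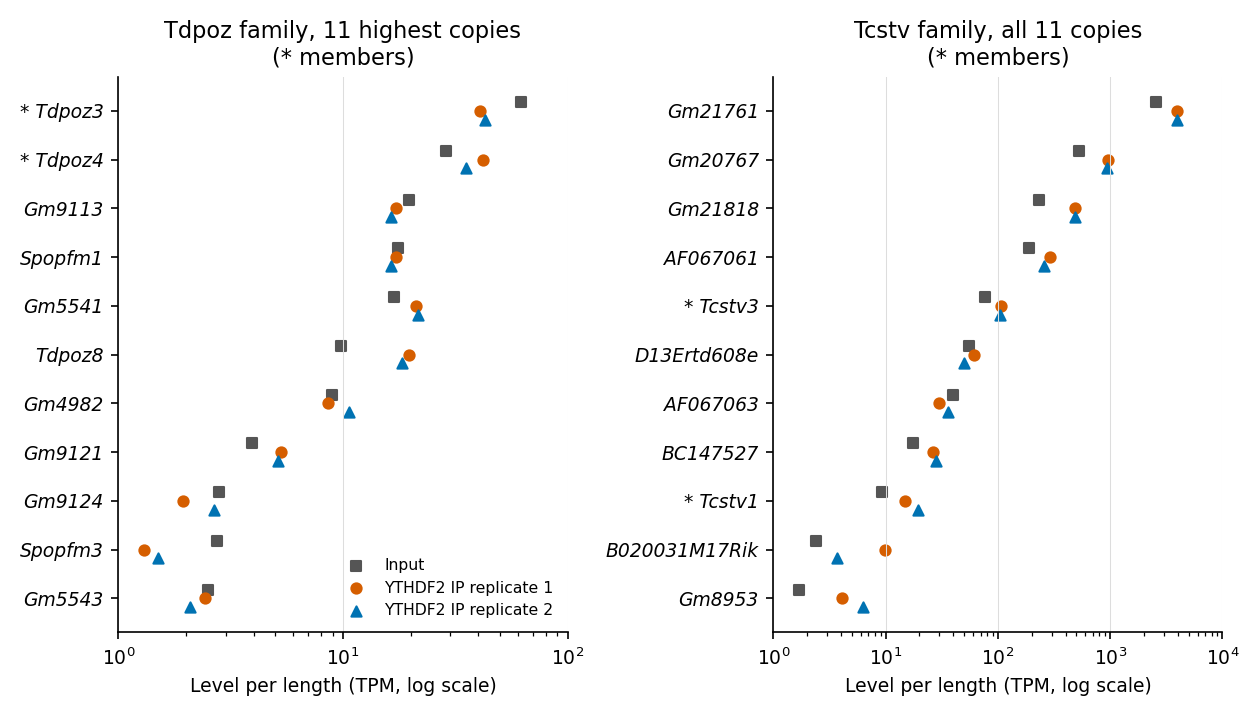
Level per length in TPM (x axis, log scale) of the 11 highest Tdpoz copies (left) and all 11 Tcstv copies (right), in the input (squares), IP replicate 1 (circles) and IP replicate 2 (triangles), with asterisks on the members. Gm21761 is at 2550 TPM in the input, against 76.8 for Tcstv3 and 9.22 for Tcstv1, and Tdpoz3 (62.2) and Tdpoz4 (28.6) have the highest input values of their family on this scale, which is not corrected for unique windows.

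The order of the levels per length differed between the families. Tdpoz3 and Tdpoz4 were the highest of their 25 copies in the input and in both IP libraries, ahead of Gm9113 (19.7 TPM in the input) and Spopfm1 (17.6). Tcstv3 ranked 5 of the 11 Tcstv copies in the input and Tcstv1 ranked 9. TPM was computed over the full exonic length, so a gene with few unique windows, such as Tdpoz3, is placed too low relative to one whose windows are all unique.

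By similarity of the protein they encode, genes of the Spop group belong beside Tdpoz. Spop itself, which encodes the substrate adaptor of a cullin ubiquitin ligase, was enriched, with 1876 counts in the input, 6600 and 6488 in IP and a log2 fold change of 1.76 ± 0.0724 (SE, adjusted p = 3.5e-22 by edgeR). Its paralog Spopl was depleted, with 638, 315 and 247 counts and a log2 fold change of −1.22 ± 0.174 (SE, adjusted p = 1.53e-07 by edgeR). The copies in the Tdpoz cluster that bear the Spop name ranged from Spopfm1 at −0.21 ± 0.12 (SE), which was not called, to Spopfm3 at −1.11 ± 0.333 and Spopfm2 at −1.58 ± 0.464 (SE), both depleted by edgeR and not called by DESeq2. With the GC trend removed neither was called, and Spopfm1 was called higher. Tdpoz3 and Tdpoz4 lay between the values of Spop and Spopl.

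Genes that merely neighbour the members were counted in the same way, taking those between the outermost members or within 100 kb of them. Around Tdpoz, 10 of 14 such genes were tested, of which none was higher and 1 was lower, against 28.4% and 28.9% of all tested genes, from Gm5773 at −1.59 to Tdpoz9 at 0.32, with a median of 0.05. Around Tcstv, 19 of 30 were tested, with 7 higher and 4 lower, read against the same shares, and a median of 0.39. The extremes there were Gm52031, which went from 6022 counts to 27099 and 26638 (log2 fold change 2.12), and Gm21358, which went from 473 to 41 and 49 (−3.43). These lists overlap with the copies by sequence.

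In the wider 2C program, the 38 genes of a list of 2C transcripts were compared. Of these, 36 were in the table and 35 were tested. At any fold change 14 were higher and 11 lower, against 28.4% and 28.9% of all tested genes, with a median of −0.04. Past the fold of 2, 3 were enriched and 3 depleted, against 15.0% and 13.0%. The list held B020031M17Rik and Gm20767, which are Tcstv copies. Zscan4c, which encodes a zinc finger protein of the 2C state, had 19319, 43891 and 43848 counts and was enriched, with a log2 fold change of 1.14 ± 0.0502 (SE). Duxf3, the gene of DUX, had 281, 582 and 319 counts, and its value of 0.64 ± 0.399 (SE) was not called. Whether the Duxf3 counts include reads from the DUX transgene was not tested. Reads placed at several genes were left out for Duxf3 and the Zscan4 genes as well. The extremes of the list were barely detected, Obox5 with 2, 18 and 18 counts (3.05 ± 1.46 SE) and Trim43c with 16, 2 and 4 (−2.41 ± 1.44 SE), and neither was called. The remaining Zscan4 genes, named after their values were seen, were mixed. Zscan4a (0.84), Zscan4d (0.41) and Zscan4f (0.26) were higher at any fold change, while Zscan4b (−1.37) and Zscan4e (−1.47) were depleted. The other depleted gene of the list was Ubtfl1 at −1.54. The 6 markers listed for 2C-like cells also stand in this list. Of them 4 were higher and 0 lower, against 28.4% and 28.9% of all tested genes, with a median of 0.53.

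YTHDF2 reads m6A, whose consensus is a short motif with a central A and C. Its form GGACT, spelled as DNA and called the T form here, and the form that ends in A instead (the A form) were searched on the transcribed strand of the exons. Among 19554 tested genes, 88.2% held the T form and 91.1% the A form. Among the 1419 genes of 800 to 1200 exonic bases, a range that covers most members, 65.9% held the T form and 74.8% the A form. The members divided by family in the A form but not in the T form. Tcstv1 and Tcstv3 each held 2 matches to the T form and none to the A form, whereas each Tdpoz member held 2 matches to the A form. Matches to the T form numbered 0 in Tdpoz3, 2 in Tdpoz1 and 1 in each of Tdpoz2, Tdpoz4 and Tdpoz5. Among Tcstv copies outside the members, Gm20767 held 1 match to the A form and B020031M17Rik held 2, while Gm21761, Gm21818 and AF067061 held 0.

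The GGACT matches of Tcstv1, Tcstv3 and Tdpoz4 are shown with 8 bases on each side, the motif in capitals, since these are the members with at least 100 input counts that hold one. In Tcstv1 and Tcstv3 one match lies in the coding sequence and the other outside it, at matching places. They are at chr13:119893861-119893881 and chr13:119894682-119894702 (minus strand) in Tcstv1, chr13:120317780-120317800 and chr13:120316960-120316980 (plus strand) in Tcstv3, and chr3:93797208-93797228 (plus strand) in Tdpoz4.
Tcstv1, coding: gagagtgtGGACTacctgaga
Tcstv3, coding: gagagtgtGGACTacctgaaa
Tcstv1, outside the coding sequence: ggaatcttGGACTttacttcc
Tcstv3, outside the coding sequence: ggaatcttGGACTttacttcc
Tdpoz4, coding: ggcctggaGGACTtgatggtc
The flanks in Tcstv1 and Tcstv3 were the same outside the coding sequence and nearly so within it. These matches are a description of the reference sequence, and no methylation was measured in these libraries.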

How the data were processed

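RIP-seq libraries of E14 ESCs after 24 h of Dox were used, grouped by their titles into 1 input and 2 YTHDF2 IP libraries. The study's methods describe an IP from cleared lysate, whereas the labels describe an IP from Trizol-extracted RNA. The authors aligned reads with HISAT2 2.2.1 after fastp 0.19.4 (submitters' processing notes), and the deposited values are raw counts from featureCounts 2.0.3, which per the file headers ran over mm10 RefSeq exons, ignored strand and took each mate singly. Reads at several places or over more than 1 gene were left out by default, which lowers counts of near-identical copies. The table held 0 columns of other samples. Tdpoz1 and Tdpoz2 rows also list exons on an alternate-locus scaffold, and the main-chromosome exons alone were used for lengths. The 198 genes annotated on such scaffolds alone had 0 counts.

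The fit used edgeR 4.0.16 in R 4.3.3 (filterByExpr, TMM factors of 0.957, 1.02 and 1.02, robust quasi-likelihood F test, Benjamini-Hochberg over 19601 genes). Dispersion (0.00538 in common, 7.33% as a coefficient of variation) comes from the 2 IP libraries alone. SE was taken as the log2 fold change over the root of F. Log2 ratios of single libraries add 0.5 to each count. DESeq2 1.42.0 was an alternative. Copies were found with BLAST+ 2.17.0 in GRCm38.p6 without alternate loci, and coding sequences aligned pairwise with Biopython 1.88.

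The members and gene lists were chosen with earlier results of these data known. By rule, all members, other genes named Tdpoz, Tcstv or Spop, the extremes of the neighbouring genes and of the 2C list, Zscan4c, Duxf3 and the 3 nearest genes per family were named. Alternatives were other scalings, no filter, DESeq2, a fixed dispersion, halved counts, a GC trend and leaving out each IP replicate.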

Additional observations from a re-analysis of the deposited data

How the results depend on the processing

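No paired analysis was possible because there was 1 input, without a number that could tie it to an IP library. The single input, the left-out multi-mapping reads and the lack of a control IP limit all values above. No member that was called changed direction under any alternative run. At a dispersion of 0.1, Tdpoz3 (−0.72, adjusted p = 0.389), Tcstv1 (0.75, adjusted p = 0.411) and Tcstv3 (0.31, adjusted p = 0.761) lost their calls by edgeR, so that 0 members were higher and 0 lower, and all genes gave 1577 enriched and 1531 depleted. With DESeq2, Tcstv1 (0.75, adjusted p = 0.124) and Tcstv3 (0.31, adjusted p = 0.0878) lost theirs, which left 0 members higher. Tdpoz4 passed at 0.38 with total count scaling, at 0.43 on the TPM scale and at 0.35 without the GC trend. The Tdpoz sum of −0.32 was −0.23 with total count scaling, −0.17 on the TPM scale, −0.24 without the GC trend and −0.16 over all annotated copies. The Tcstv sum of 0.36 was 0.46, 0.51, 0.53 and 0.54 under the same alternatives, and 0.39 with no filter. Total count scaling gave 3304 enriched and 2177 depleted genes and scaling to TPM 3553 and 2024, compared with 2936 and 2543. Without IP replicate 1 or 2, 1 member was past the fold of 2, with no test, where 3964 and 4039 of 19601 genes were enriched. It was Tdpoz1, which passed the filter only through IP replicate 1. The sums over all annotated copies were chosen after seeing the data, and the cause of these changes was not tested.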
